A study of Mus musculus with 4 samples.

Results

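The aminoacyl-tRNA synthetase genes were followed in T8 cells, a mouse precursor B-cell leukemia line that lacks Irf4, after IRF4 was returned by a retrovirus. The members were 37 named genes. They comprised 20 genes for the cytosolic enzymes, 15 for the mitochondrial enzymes, whose symbols end in 2, and the 2 scaffold genes Aimp1 and Aimp2. They were listed by gene name and compartment, with no threshold on their values. All 37 were found among the 55359 gene identifiers of the count table, and all 37 were among the 14637 genes that passed the filter on low counts.

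Each synthetase joins 1 amino acid to its matching tRNA, at the cost of ATP, and so fixes which amino acid a codon is read as. Vertebrate cells carry separate nuclear genes for the enzymes of the cytosol and of the mitochondrion, while Gars and Kars each give rise to both forms and Eprs codes for a single protein with the glutamate and the proline enzyme. Several cytosolic enzymes sit in a multi-synthetase complex around the scaffold proteins, and the enzymes fall into 2 structural classes with unrelated catalytic folds. Some of the cytosolic genes are textbook targets of ATF4, the transcription factor that amino acid shortage turns on through the kinase GCN2. Some are targets of MYC, which drives genes of cell growth in lymphoid cells.

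The comparison asked how transcripts of Irf4-/- leukemia cells differed with and without IRF4. The EV-RV group received a retrovirus with GFP alone and the IRF4-RV group a retrovirus with GFP and IRF4, and both groups carried the Irf4-/- genotype. Each group had 2 libraries of total RNA from viable cells, collected 24 h after transduction. The line came from 1 mouse tumor, the share of cells that carried virus is not given in the sources used here, and the written protocols of these samples speak of T11 cells although titles and tissue name T8. The libraries held between 31230223 and 37817752 counts. Irf4 was counted at 242 and 241 CPM (counts scaled to an equal library size) with EV-RV and at 2822 and 2491 CPM with IRF4-RV (log2 fold change 3.46 ± 0.091, SE, edgeR adjusted p = 1.14e-06). The EV-RV libraries thus held 8070 and 7600 Irf4 counts in a line labelled Irf4-/-, and the table does not show which exons these counts come from, nor does it separate reads of the vector and of the locus. The B-lineage markers Cd79a and Cd79b did not pass the test, with EV-RV levels of 293 to 922 CPM, Vpreb1 and Igll1 fell, and Rag1 had at most 1 count in a library. The 8 B-lineage markers summed to 3474 and 3641 CPM with EV-RV against 2450 and 2449 CPM with IRF4-RV. All 7 that were tested were lower in both IRF4-RV libraries than in either EV-RV library, where 61.3% of all genes tested did not overlap. Of the other cell type marker sets, the summed level of 7 stromal genes stood apart in 1 library, at 47.5 and 89.4 CPM with EV-RV and 47.0 and 221 CPM with IRF4-RV, although the stromal marker Dcn had at most 2 counts. T8 cells had first been grown on stromal cells, and the part of such RNA in the results was not tested. Of the 11 T and NK cell markers, 3 were tested, Trac and Zap70 fell (log2 fold changes -0.70 and -0.50, edgeR adjusted p = 0.00229 and 0.00671), and Cd3e, Cd8a and Ncr1 had at most 2 counts. The summed level of these markers was 48.3 and 48.2 CPM with EV-RV against 33.0 and 32.6 CPM with IRF4-RV. The 8 macrophage markers summed to 1.47 and 1.33 CPM with EV-RV against 8.42 and 7.28 CPM with IRF4-RV. Most of this was Mrc1, which rose (3.26, adjusted p = 4.94e-05), while Adgre1 was at 0 in all libraries. The 7 granulocyte markers summed to 0.09 and 0.063 CPM with EV-RV against 2.13 and 1.62 CPM with IRF4-RV. Ly6g rose from 1 and 0 counts to 71 and 58 counts (adjusted p = 0.000512), while S100a8 and S100a9 were at 0 in all libraries. The part of such cells was not tested either.

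Start-site sequence was read for the members because ATF4 and MYC bind known letters near the starts of some of these genes. RefSeq promoter windows on GRCm38.p6, of 250 bases before and 50 bases after the annotated start, were matched for 29 of the 37 members. Cars, Hars, Hars2, Lars, Nars, Rars, Vars and Wars had no window and were not searched. The letters TGATGNAA, the core of the C/EBP-ATF response element bound by ATF4, were searched on both strands. They were held by 5 of 13 cytosolic genes with a window (38.5%), by 0 of 14 mitochondrial genes, and by 3.97% of all 32851 windows. The genes were Aars, Gars, Iars, Tars and Yars. A stretch around a match in each gene is shown 5′ to 3′ on the strand that carries it, with the matched letters in capitals. The position given, here and for Qars below, is that of the first matched base in the direction of the gene. For a match on the strand opposite to the gene, that base is the last capital shown.
Aars, chr8:111033840-111033869, minus strand, from base 10 of the transcript: tcagagcgctcTGATGAAAagtgacccgct
Gars, chr6:55037960-55037989, minus strand, 30 bases before the start: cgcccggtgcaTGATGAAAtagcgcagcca
Iars, chr13:49682126-49682155, minus strand, from base 8 of the transcript: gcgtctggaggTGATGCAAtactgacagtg
Tars, chr15:11399655-11399684, plus strand, 15 bases before the start: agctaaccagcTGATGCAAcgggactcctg
Yars, chr4:129189895-129189924, plus strand, from base 4 of the transcript: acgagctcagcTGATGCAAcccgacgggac
In GENCODE M21 the stretches of Aars, Iars, Tars and Yars lie on or touch an exon of the gene, and the stretch of Gars lies before the gene. The match of Yars is on the strand of its gene, while the others are on the strand opposite to theirs.

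The E-box CACGTG, the palindrome bound by MYC with MAX, was present in 4 of 13 cytosolic genes (30.8% of windows, Aars, Farsb, Iars and Tars), in 1 of 15 mitochondrial windows (6.67%, Ears2) and in 7.15% of all windows. Letters of an interferon-stimulated response element, GAAANNGAAA, were found in 1 of the 29 members searched, Qars, and in 3.44% of all windows. Wars, the other member that rose, was not searched. That stretch is shown because Qars had the largest rise among the members.
Qars, chr9:108507796-108507825, minus strand, 199 bases before the RefSeq start and on an exon of longer GENCODE M21 transcripts of the gene: catgggcgtgGAAAGGGAAAgtgtttagca
GGAANNGAAA, the composite element that IRF4 shares with PU.1, was in 0 member windows and in 2.72% of all windows. TTCNNNGAA, bound by STAT factors, was in the windows of Aars, Kars and Nars2 and in 8.3% of all windows. No matches of different motifs shared bases. A match is a description of the letters and not of a factor's binding.

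The 250 bases before the start of Gars and Yars2, a cytosolic and a mitochondrial gene that fell, are given for comparison, on the strand of the gene, with motif letters in capitals. Both lie before the gene as GENCODE M21 draws it.
Gars, chr6:55037751-55038000, plus strand: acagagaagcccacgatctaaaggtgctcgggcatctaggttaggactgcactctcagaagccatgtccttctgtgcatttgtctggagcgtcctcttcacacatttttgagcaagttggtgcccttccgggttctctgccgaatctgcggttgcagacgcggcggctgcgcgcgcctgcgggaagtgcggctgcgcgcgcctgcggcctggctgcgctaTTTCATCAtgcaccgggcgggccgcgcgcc
Yars2, chr16:16302715-16302964, plus strand: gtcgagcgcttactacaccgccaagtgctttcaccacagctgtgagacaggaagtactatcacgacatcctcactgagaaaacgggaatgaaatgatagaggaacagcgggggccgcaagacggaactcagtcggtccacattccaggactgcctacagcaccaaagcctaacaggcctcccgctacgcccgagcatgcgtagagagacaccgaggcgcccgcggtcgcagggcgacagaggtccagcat
None of the 5 motifs occurred in the Yars2 window.

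Most synthetase genes were lower with IRF4-RV. In edgeR's quasi-likelihood F test with Benjamini-Hochberg adjustment over all genes and a cutoff of 0.1, 21 of the 37 members fell, 2 rose (Qars and Wars) and 14 did not pass. Among all genes tested, 29.7% passed, 13.7% lower and 16% higher with IRF4-RV. The median log2 fold change was -0.29 over the members and 0.0073 over all genes. In CPM scaled with TMM factors, the EV-RV and IRF4-RV libraries did not overlap for 32 members, 29 lower and 3 higher, while 61.3% of all genes tested did not overlap. The summed level of the members was 5199 and 5235 CPM with EV-RV and 4539 and 4719 CPM with IRF4-RV. In bulk RNA, fewer cells of a type and less RNA per cell cannot be told apart.

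**Figure D1:**
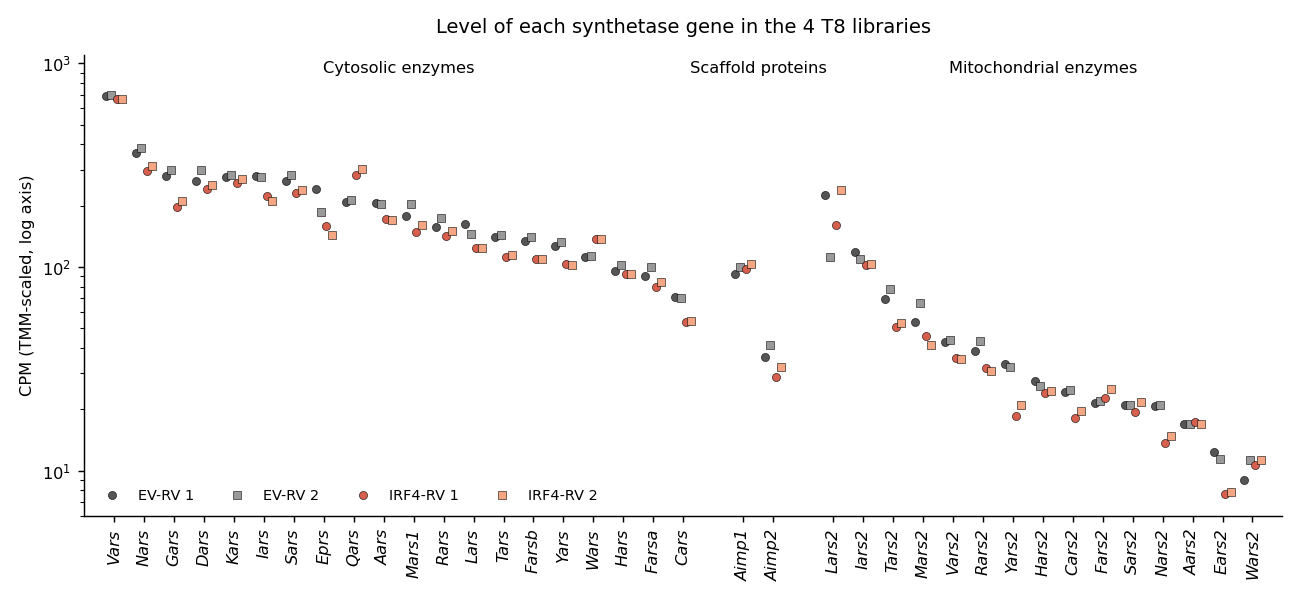
Level of the 37 members in each of the 4 T8 libraries, in TMM-scaled CPM on a log axis, ordered by mean level within the cytosolic, scaffold and mitochondrial genes. Gray symbols are EV-RV and red symbols IRF4-RV, circles replicate 1 and squares replicate 2. The red symbols lie below the gray ones for 18 of 20 cytosolic genes and above them for Qars and Wars.

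Among all genes tested, 61.3% had groups that did not overlap, and 13.7% passed as lower and 16% as higher. All 20 cytosolic genes had groups that did not overlap, and 12 fell, 2 rose and 6 did not pass. Their median log2 fold change was -0.27, with a range of -0.50 to 0.47. The summed level was 4336 and 4454 CPM with EV-RV and 3833 and 3916 CPM with IRF4-RV. Each change was small, since the folds of the 12 genes that fell lay between 0.706 and 0.857.

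Of the 8 enzymes of the multi-synthetase complex, Eprs, Iars, Lars and Mars1 fell. Eprs, the glutamate and proline enzyme, was at 242 and 185 CPM with EV-RV and at 159.5 and 143 CPM with IRF4-RV (log2 fold change -0.50 ± 0.13, SE, edgeR adjusted p = 0.0269). Its EV-RV libraries differed by 1.31-fold, more than any other member except Lars2, yet both were above both IRF4-RV libraries. Its log2 fold change ran from -0.68 to -0.30 as each library was left out. Iars, the isoleucine enzyme, whose window held the ATF4 letters and an E-box, was at 279 and 276 CPM with EV-RV and at 222 and 211 CPM with IRF4-RV (-0.36 ± 0.071, adjusted p = 0.00942). Lars, the leucine enzyme, which also reports leucine to the mTORC1 kinase, was at 162 and 145.5 CPM with EV-RV and at 124 CPM in both IRF4-RV libraries (-0.31 ± 0.081, adjusted p = 0.0295). Mars1, the methionine enzyme that charges the initiator tRNA, was at 178.5 and 205 CPM with EV-RV and at 148 and 159.8 CPM with IRF4-RV (-0.32 ± 0.091, adjusted p = 0.0414). All 4 were lower in both IRF4-RV libraries than in either EV-RV library. Without IRF4-RV replicate 2 the calls of Iars and Lars were lost (adjusted p = 0.114 and 0.124), and that of Mars1 was lost without EV-RV replicate 2 or without IRF4-RV replicate 1 (adjusted p up to 0.159). Mars1 overlaps Ddit3 on the opposite strand by 68 exonic bases, and Ddit3 held at most 141 counts in a library.

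The aspartate, lysine and arginine enzymes of the complex, Dars, Kars and Rars, did not pass, at log2 fold changes of -0.19, -0.07 and -0.18 and adjusted p of 0.154, 0.519 and 0.173. Both IRF4-RV values of each lay below both EV-RV values. Dars and Rars passed when EV-RV replicate 1 was left out. The 8th enzyme, Qars, rose.

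Outside the complex, 8 of 12 cytosolic genes fell. Gars, the glycine enzyme (chromosome 6, 55038007 to 55079500, GENCODE M21 on GRCm38), was at 279 and 299 CPM with EV-RV and at 197 and 210.5 CPM with IRF4-RV (log2 fold change -0.50 ± 0.077, SE, edgeR adjusted p = 0.00298). The groups lay well apart, since the libraries within each group differed by only 1.07-fold. Cars, the cysteine enzyme, was at 71.1 and 70.5 CPM with EV-RV and at 53.65 and 54.0 CPM with IRF4-RV (-0.40 ± 0.077, adjusted p = 0.00859). Tars, the threonine enzyme, was at 141 and 144 CPM with EV-RV and at 111 and 114 CPM with IRF4-RV (-0.34 ± 0.072, adjusted p = 0.0131). Gars, Cars, Tars and Eprs were the cytosolic genes whose fall passed the cutoff when any 1 library was left out.

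Yars, the tyrosine enzyme, was at 126 and 133 CPM with EV-RV and at 104 and 102.5 CPM with IRF4-RV (-0.33 ± 0.074, edgeR adjusted p = 0.0162). Farsb and Farsa code for the paired subunits of the phenylalanine enzyme. Farsb, the beta subunit, was at 134 and 141 CPM with EV-RV and at 109.7 and 109.8 CPM with IRF4-RV (-0.32 ± 0.074, adjusted p = 0.0173). Farsa, the alpha subunit, did not pass at 89.8 and 100.4 CPM with EV-RV and 80.1 and 84.0 CPM with IRF4-RV (-0.21 ± 0.086, adjusted p = 0.122). Both subunits were lower in every IRF4-RV library, and whether they differed from each other was not tested. Nars, the asparagine enzyme, was at 362 and 385 CPM with EV-RV and at 296 and 314 CPM with IRF4-RV (-0.29 ± 0.075, adjusted p = 0.0277). Aars, the alanine enzyme, whose window held the ATF4 letters and an E-box, was at 206 and 203 CPM with EV-RV and at 173 and 171 CPM with IRF4-RV (-0.25 ± 0.0695, adjusted p = 0.0373). Sars, the serine enzyme, was at 265 and 283 CPM with EV-RV and at 230.5 and 239 CPM with IRF4-RV (-0.22 ± 0.073, adjusted p = 0.0663), the smallest fall that passed. Without IRF4-RV replicate 2 the calls of Yars, Farsb, Nars, Aars and Sars were lost. Those of Nars, Aars and Sars were lost without IRF4-RV replicate 1 as well, and that of Sars also without EV-RV replicate 2 and at a cutoff of 0.05. Aars overlaps Exosc6 on the same strand by 1326 exonic bases, 14.3% of its exons, and Exosc6 held 0 counts in all libraries. Sgpp2, on the opposite strand, overlaps 9.47% of the exonic bases of Farsb. It held 44 and 56 counts with EV-RV against 188 and 152 with IRF4-RV. Hars and Vars, the histidine and valine enzymes, did not pass, at log2 fold changes of -0.09 and -0.05 and adjusted p of 0.446 and 0.681. Vars had the highest level of all members, 688 and 698 CPM with EV-RV and 670.2 and 671 CPM with IRF4-RV.

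Qars and Wars moved the other way. Qars, the glutamine enzyme (chromosome 9, 108507706 to 108515941), was at 209 and 214 CPM with EV-RV and at 281 and 303 CPM with IRF4-RV, 1.38-fold higher (log2 fold change 0.47 ± 0.074, SE, edgeR adjusted p = 0.00355). Wars, the tryptophan enzyme (chromosome 12, 108860030 to 108894174), was at 112 and 114 CPM with EV-RV and at 137 CPM in both IRF4-RV libraries, 1.21-fold higher (0.28 ± 0.071, adjusted p = 0.0284). Both IRF4-RV values lay above both EV-RV values for each gene. The rise of Qars passed without any 1 library, with log2 fold changes of 0.42 to 0.50, whereas that of Wars was lost without IRF4-RV replicate 1 and without IRF4-RV replicate 2 (adjusted p up to 0.191).

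Within a library, Qars took 4.82% and 4.81% of the summed counts of the cytosolic genes with EV-RV against 7.34% and 7.74% with IRF4-RV. The share of Wars was 2.59% and 2.55% with EV-RV against 3.57% and 3.49% with IRF4-RV. These shares do not depend on the scaling between libraries. The share of Gars went from 6.43% and 6.71% to 5.15% and 5.38%. Wars is widely known as an interferon-induced gene, and of 8 interferon-response genes listed as comparators, 7 were tested and all 7 rose. Gbp2, an interferon-induced GTPase, was at 6.89 and 6.03 CPM with EV-RV and at 27.25 and 26.5 CPM with IRF4-RV (log2 fold change 2.05, edgeR adjusted p = 2.28e-05). Irf1, a transcription factor of the interferon response, had a log2 fold change of 1.38 and an adjusted p of 5.51e-05. The comparators had a median log2 fold change of 1.72, and whether they bear on Wars or Qars was not tested.

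Of the scaffold genes of the complex, Aimp2 fell and Aimp1 did not pass. Aimp2 was at 35.9 and 41.3 CPM with EV-RV and at 28.8 and 32.1 CPM with IRF4-RV (log2 fold change -0.34 ± 0.11, SE, edgeR adjusted p = 0.0559). Aimp1 was at 92.6 and 99.9 CPM with EV-RV and at 97.8 and 104 CPM with IRF4-RV (0.07 ± 0.0805, adjusted p = 0.611), with overlapping groups. The call of Aimp2 was lost without EV-RV replicate 2 or without IRF4-RV replicate 1 (adjusted p up to 0.227). Eif2ak1, on the opposite strand, overlaps 29.4% of the exonic bases of Aimp2 and held 1670 and 1468 counts with EV-RV against 2478 and 2419 with IRF4-RV. Whether reads were counted by strand is not given in the sources used here, so reads of the 2 genes may not have been kept apart.

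**Figure D2:**
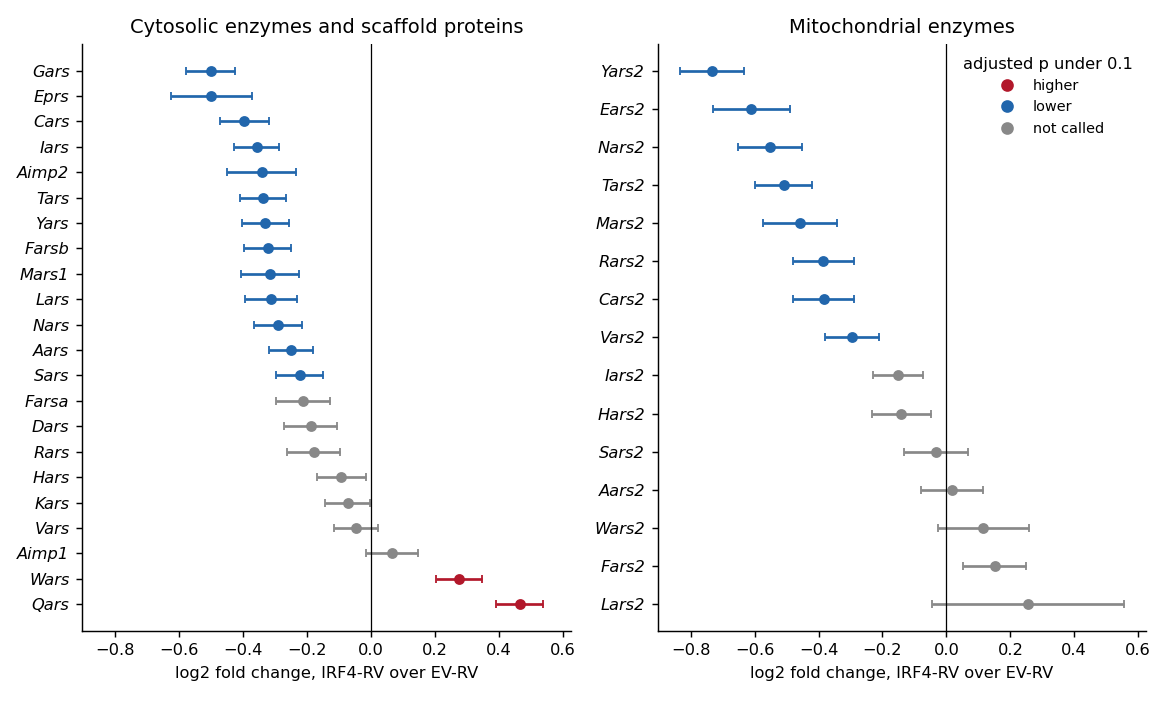
Log2 fold change of each member, IRF4-RV over EV-RV, with bars of 1 standard error from the edgeR fit on 2 libraries per group, for cytosolic and scaffold genes (left) and mitochondrial genes (right). Red points rose, blue points fell and gray points did not pass at an adjusted p of 0.1. Yars2 lies lowest at -0.73, Qars highest at 0.47, and Lars2 has the widest bar.

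Of the 15 mitochondrial genes, 8 fell, 0 rose and 7 did not pass, and 4 had a positive log2 fold change. Their median log2 fold change was -0.30, with a range of -0.73 to 0.25. Groups did not overlap for 10 that were lower and 1 that was higher, Fars2. Among all genes tested, 61.3% did not overlap, and 13.7% passed as lower and 16% as higher. At an unadjusted p under 0.05, 0 mitochondrial genes were higher, and DESeq2 also called 8 lower and 0 higher.

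Yars2, the mitochondrial tyrosine enzyme (chromosome 16, 16302965 to 16309640), had the largest fall of all members. It was at 33.2 and 32.3 CPM with EV-RV and at 18.45 and 20.9 CPM with IRF4-RV, or 0.601 of the EV-RV level (log2 fold change -0.73 ± 0.10, SE, edgeR adjusted p = 0.00177). Ears2, the glutamate enzyme, was at 12.4 and 11.4 CPM with EV-RV and at 7.71 and 7.88 CPM with IRF4-RV (-0.61 ± 0.12, adjusted p = 0.00899). Nars2, the asparagine enzyme, was at 20.65 and 21 CPM with EV-RV and at 13.7 and 14.7 CPM with IRF4-RV (-0.55 ± 0.10, adjusted p = 0.00644). Tars2, the threonine enzyme, was at 69.5 and 78.0 CPM with EV-RV and at 50.6 and 52.9 CPM with IRF4-RV (-0.51 ± 0.089, adjusted p = 0.00553). These 4 genes passed the cutoff when any 1 library was left out.

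Mars2, the methionine enzyme, was at 53.9 and 66.2 CPM with EV-RV and at 46.0 and 41.5 CPM with IRF4-RV (-0.46 ± 0.12, edgeR adjusted p = 0.0265). Rars2, the arginine enzyme, was at 38.5 and 43.5 CPM with EV-RV and at 32.0 and 30.9 CPM with IRF4-RV (-0.38 ± 0.096, adjusted p = 0.0252). Cars2, the cysteine enzyme, was at 24.4 and 24.9 CPM with EV-RV and at 18.2 and 19.6 CPM with IRF4-RV (-0.38 ± 0.096, adjusted p = 0.0247). Vars2, the valine enzyme, was at 42.8 and 44.0 CPM with EV-RV and at 35.6 and 35.1 CPM with IRF4-RV (-0.30 ± 0.084, adjusted p = 0.0401). All were lower in both IRF4-RV libraries, but Mars2, Rars2 and Vars2 did not pass without EV-RV replicate 2, Cars2 and Vars2 did not without IRF4-RV replicate 1, and Vars2 did not without IRF4-RV replicate 2. Cars2 overlaps Naxd by 422 exonic bases on the opposite strand, 5.83% of its exons.

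The other mitochondrial genes, Aars2, Fars2, Hars2, Iars2, Lars2, Sars2 and Wars2, had log2 fold changes of -0.15 to 0.25 and adjusted p of 0.216 to 0.919. Fars2, the phenylalanine enzyme, was at 21.4 and 21.9 CPM with EV-RV and at 22.9 and 25.2 CPM with IRF4-RV (0.15 ± 0.098). Iars2 was lower in both IRF4-RV libraries, at 119 and 109.7 CPM with EV-RV and 102 and 103.9 CPM with IRF4-RV, and 22.9% of its exonic bases overlap Rab3gap2 on the opposite strand. Hars2 was lower in both as well, and shares 195 exonic bases with Hars, which lies beside it on the opposite strand.

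Lars2, the mitochondrial leucine enzyme (chromosome 9, 123366927 to 123462666), could not be placed. It was at 224 and 111 CPM with EV-RV and at 161 and 239.8 CPM with IRF4-RV, so the groups overlapped. The EV-RV libraries differed 2.01-fold and the IRF4-RV libraries 1.49-fold, the widest spread of any member within either group. The log2 fold change was 0.25 ± 0.30 (SE, edgeR adjusted p = 0.603), and it ran from -0.16 to 0.84 as each library was left out, with a rise called without EV-RV replicate 1 and without IRF4-RV replicate 1. Because Lars2 held a large share of the mitochondrial counts, the summed level of the 15 genes (734 and 639.7 CPM with EV-RV, 579 and 667 CPM with IRF4-RV) overlapped between the groups.

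Cytosolic and mitochondrial genes for the same amino acid were compared in 16 pairs, with Fars2 set beside both Farsa and Farsb. In 6 pairs both genes fell, namely those for cysteine, glutamate, methionine, asparagine, threonine and tyrosine. In 5 pairs only the cytosolic gene passed as lower (Aars, Farsb, Iars, Lars and Sars) and in 2 only the mitochondrial gene did (Rars2 and Vars2). Neither passed for histidine or for Farsa with Fars2, and for tryptophan Wars rose while Wars2 did not pass. A gene that passed beside a partner that did not is not shown to differ from it.

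The log2 ratio of mitochondrial over cytosolic counts within a library does not depend on the scaling between libraries. For tyrosine this ratio was -1.93 and -2.04 with EV-RV against -2.49 and -2.29 with IRF4-RV, so Yars2 was lower relative to Yars in both IRF4-RV libraries. The same order was found for Nars, Rars, Tars and Vars, which gives 5 pairs with a lower ratio. For alanine the ratio was -3.61 and -3.57 with EV-RV against -3.31 and -3.33 with IRF4-RV. It was higher with IRF4-RV in 5 pairs, those of Aars, Farsa, Farsb, Iars and Sars, and overlapped between the groups in 6. Fars2 enters both the Farsa and the Farsb pair. For the CPM of single genes, 61.3% of all genes tested did not overlap between the groups. No test of these ratios was made.

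**Figure D3:**
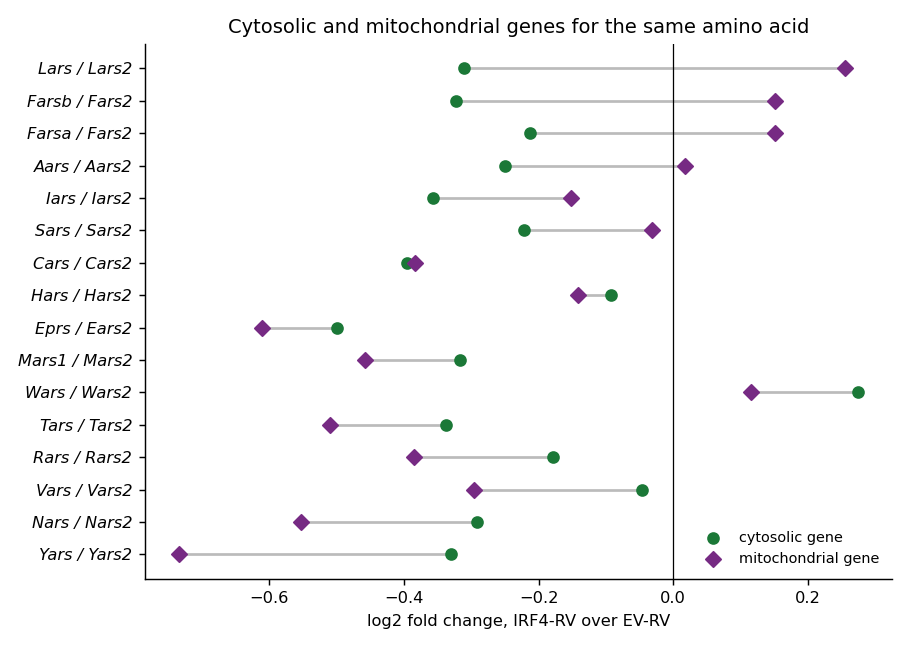
Log2 fold change, IRF4-RV over EV-RV, of the cytosolic gene (green circle) and the mitochondrial gene (purple diamond) for the same amino acid in 16 pairs, ordered by the difference within the pair. Both genes have the same sign in 12 pairs. Lars2 lies 0.57 above Lars and Yars2 lies 0.40 below Yars.

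Levels per kilobase of mRNA set the genes side by side. With EV-RV the cytosolic genes ran from 22.0 CPM per kb (Cars) to 171 CPM per kb (Vars), with a median of 63.7, and the mitochondrial genes from 2.30 (Wars2) to 43.1 (Lars2), with a median of 10.2. By the EV-RV means, the cytosolic gene had the higher level per kb in all pairs but that of leucine, where the ratio was 0.898. This exception turned with the library, since the log2 ratio of Lars2 over Lars counts was 0.47 in EV-RV replicate 1 and -0.39 in EV-RV replicate 2. The median ratio was 6.38 and the highest, for tryptophan, 27.0. The level of Mars2 was divided by an annotated mRNA length of 11294 bases, the longest of these genes. Among cytosolic genes, 5 of the 9 class I genes other than Eprs fell and 2 rose, with a median log2 fold change of -0.31, and 6 of 10 class II genes fell and 0 rose, with a median of -0.24. Both rising members are class I enzymes. Among mitochondrial genes, 6 of 9 class I genes and 2 of 6 class II genes fell, with median log2 fold changes of -0.38 and -0.09. Inside the complex 4 of 8 enzymes fell and outside it 8 of 12, with medians of -0.25 and -0.27. No test was made between these groups.

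Other genes that charge, edit or release tRNA were followed as a list of 16, of which 15 were tested. Of these, 3 fell, 0 rose and 12 did not pass, with a median log2 fold change of -0.20. Across all genes tested, 29.7% passed, 13.7% of them all as lower and 16% as higher. At an unadjusted p under 0.05, 0 were higher, and DESeq2 called 3 lower and 0 higher. Tarsl2, a second cytosolic threonine enzyme, was at 12.1 and 11.3 CPM with EV-RV and at 7.59 and 7.50 CPM with IRF4-RV (-0.63, edgeR adjusted p = 0.00768). Pstk, the kinase that acts on seryl-tRNA on the way to selenocysteine, was at 12.1 and 15.4 CPM with EV-RV and at 9.71 and 9.50 CPM with IRF4-RV (-0.52, adjusted p = 0.0336). Eef1e1, an auxiliary protein of the multi-synthetase complex, was at 76 and 88.8 CPM with EV-RV and at 68.3 and 66.5 CPM with IRF4-RV (-0.29, adjusted p = 0.0649). The mitochondrial proline enzyme, Pars2, did not pass, at a log2 fold change of -0.23 and an adjusted p of 0.234.

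In a list of 26 genes of the GCN2-ATF4 response to amino acid shortage, 12 fell, 1 rose and 13 did not pass, with a median log2 fold change of -0.32. Of all genes tested, 13.7% were lower and 16% were higher. Atf4 itself was at 180.1 and 183 CPM with EV-RV and at 125 and 134 CPM with IRF4-RV (-0.49 ± 0.075, SE, edgeR adjusted p = 0.00318). Aldh18a1 and Pycr1, enzymes of proline synthesis, fell by 0.51 and 0.49 on the log2 scale (adjusted p = 0.00178 and 0.0188). Shmt2, the mitochondrial serine hydroxymethyltransferase, fell by 0.47 (adjusted p = 0.00597). The response genes Trib3 and Chac1 fell by 1.25 and 1.39 (adjusted p = 0.0087 and 0.0157) at levels of at most 5.49 and 2.82 CPM, and Cebpb, which codes for a bZIP partner of ATF4, fell by 0.79 (adjusted p = 0.0729). Atf3, a stress-induced repressor of the ATF family, rose from 2.97 and 2.79 CPM to 21.9 and 25.5 CPM (3.04, adjusted p = 8.12e-06). The members of the list thus did not all move one way. Asns, the asparagine synthetase and a standard reporter of this response, was barely counted, with at most 33 counts in a library. ATF4 is controlled mainly at translation, which these RNA levels do not measure.

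Among cytosolic synthetase genes with a promoter window, all 5 with the ATF4 letters fell, and of the 8 without them 4 fell and 1 rose. The E-box was in 4 of the cytosolic windows, all of genes that fell, and Aars, Iars and Tars held both motifs. Of 14 mitochondrial genes with a window, 0 held the ATF4 letters and 1 the E-box (Ears2), while 8 of the 15 mitochondrial genes fell. Of all genes tested, 13.7% were lower. These are counts over few genes, and whether the letters bear on the falls was not tested. In a list of 8 genes of the MYC network, Myc was at 279 and 283 CPM with EV-RV and at 142 and 123 CPM with IRF4-RV (log2 fold change -1.09 ± 0.087, SE, edgeR adjusted p = 0.000133), and Mycn fell by 0.83 on the log2 scale (adjusted p = 0.0017). Max, the binding partner of MYC, and Mxd4, which competes with MYC for MAX, rose by 0.72 and 0.83 (adjusted p = 0.000558 and 0.00341). The other 4 did not pass.

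The ribosomal proteins of each compartment were set beside the synthetases. Across all genes tested, 29.7% passed, and the shares that were lower and higher were 13.7% and 16%. Of 76 mitochondrial ribosomal protein genes tested, 20 fell and 1 rose, with a median log2 fold change of -0.15. Of 81 cytosolic ribosomal protein genes, 40 rose and 1 fell, with a median of 0.23. These genes were taken by symbol, which lets in ribosomal protein-like genes. The gene that fell was such a gene, Rpl7l1 (-0.25, edgeR adjusted p = 0.0568). Rpl3l, another, was among those that rose, at 0.48 and 0.54 CPM with EV-RV and 2.57 and 1.95 CPM with IRF4-RV. The summed level of the cytosolic ribosomal protein genes was 121400 and 137200 CPM with EV-RV and 145000 and 156200 CPM with IRF4-RV. With library size as the only scaling, the medians of the cytosolic and mitochondrial synthetases were -0.36 and -0.39, the median of all genes was -0.08, and 37.8% of all calls were higher with IRF4-RV in place of 53.8%. The 23 members that passed kept their direction under that scaling.

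**Figure D4:**
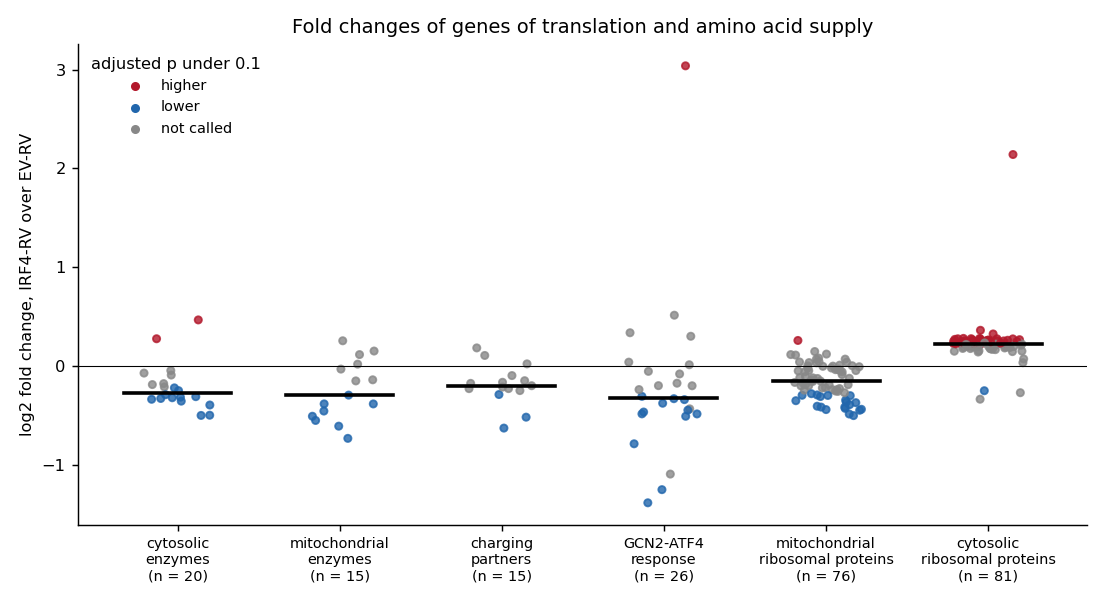
Log2 fold change, IRF4-RV over EV-RV, of each gene tested in 6 groups: cytosolic and mitochondrial synthetases, charging partners, the GCN2-ATF4 response, and mitochondrial and cytosolic ribosomal proteins. Red points rose, blue fell and gray did not pass at an adjusted p of 0.1, and black lines are group medians. The medians lie below 0 for all groups except the cytosolic ribosomal proteins, at 0.23, and the high point of the response list is Atf3.

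The number of members that passed depended on single libraries. Of the 23 that passed, 9 did so without any 1 library (Cars, Eprs, Gars, Qars, Tars, Ears2, Nars2, Tars2 and Yars2). Without IRF4-RV replicate 2, in which the stromal genes were highest, 6 cytosolic genes passed in place of 14, and without IRF4-RV replicate 1 it was 9. Without EV-RV replicate 2, 5 mitochondrial genes passed in place of 8. The 2 libraries of a group may come from 1 culture, and the p-values then measure the spread between these libraries only.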

How the data were processed

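Bulk RNAseq of T8 cells was analyzed, with 2 EV-RV and 2 IRF4-RV libraries grouped by their labels. The authors used STAR (version 2.4.0j) on GRCm38 and deposited raw counts per gene from featureCounts, which are whole numbers without normalization. Of 55359 identifiers, 52083 matched GENCODE M21, and the other 3276 held at most 0.486% of the counts of a library. How strand and multiply aligned reads were handled is not given in the sources used here. The 4 libraries held 31230223 to 37817752 counts.

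The whole table was fitted in R 4.3.3 with edgeR 4.0.16 (filterByExpr, TMM factors, quasi-likelihood F test, Benjamini-Hochberg adjustment over 14637 genes, cutoff 0.1 as in the study's methods). Folds are on the log2 scale with standard errors, and CPM are counts scaled by the TMM factors. The level per kb used the GENCODE M21 transcript with the longest coding sequence. The procedure was also tested on simulated data.

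All members are named. Of the other lists, genes past the cutoff were named, at most the 8 with the largest change per list. Phgdh and Slc7a5 of the GCN2-ATF4 list and Rpl7l1 of the ribosomal proteins were named in addition. These additions, and genes not past the cutoff or named for background, were chosen after their values were seen. Members and lists (charging partners, GCN2-ATF4 response, MYC network, interferon comparators, ribosomal proteins, cell type markers) were chosen with earlier results of these data known. Alternatives were DESeq2 1.42.0, its size factors, library size only, 2 other filters, a cutoff of 0.05, a replicate block, and leaving out each library. Motif letters were counted in RefSeq windows on GRCm38.p6. A few genes and 1 sequence are not reported here.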

Additional observations from a re-analysis of the deposited data

How the results depend on the processing

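No member changed sign with a call under any of the 11 alternatives. Over the members and alternatives, 366 comparisons stayed on the same side of the cutoff, 25 lost a call and 16 gained one. As each library was left out, the genes called across the table numbered 3573 to 3646 in place of 4349, the cytosolic genes called 6 to 17 in place of 14, and the mitochondrial genes called 5 to 9 in place of 8. Without IRF4-RV replicate 2 there were 6 cytosolic calls and without IRF4-RV replicate 1 there were 9, and without EV-RV replicate 2 there were 5 mitochondrial calls. The median log2 fold change ran from -0.29 to -0.23 for cytosolic and from -0.33 to -0.27 for mitochondrial genes. With library size only the medians were -0.36 and -0.39, as the median of all genes moved from 0.0073 to -0.08. The cause of the other changes was not tested, and a fit without 1 library assumes that the lone library of a group varies as the other group does.

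With the replicate block, 6394 genes were called, 17 of them cytosolic and 10 mitochondrial members, Lars2 among them as higher (adjusted p = 3.52e-06). The same-numbered libraries of Lars2 went opposite ways, from 224 to 161 CPM for replicate 1 and from 111 to 239.8 CPM for replicate 2. The replicate numbers are not stated to mark a shared culture or day, and deviations of same-numbered libraries correlated at r = 0.26 over 14637 genes, from 2 pairs. DESeq2 called 14 cytosolic and 8 mitochondrial genes. With 2 libraries per group, small differences such as that of Sars lay close to the cutoff.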

Other observations

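The order of the libraries by Lars2 level was the same as that by the share of counts in identifiers that GENCODE M21 does not hold. This share was 0.322% and 0.203% with EV-RV against 0.207% and 0.486% with IRF4-RV, beside Lars2 levels of 224 and 111 CPM and of 161 and 239.8 CPM. With 4 libraries no correlation was computed. The summed level of the stromal markers, 47.5, 89.4, 47.0 and 221 CPM in the same order, was also highest in IRF4-RV replicate 2, but lowest in IRF4-RV replicate 1.

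Slc7a5, the transporter that brings large neutral amino acids into the cell, was at 379 and 386 CPM with EV-RV and at 295 and 294 CPM with IRF4-RV (log2 fold change -0.38, edgeR adjusted p = 0.00644). Its partner chain Slc3a2 had a log2 fold change of -0.20 and an adjusted p of 0.125. Phgdh, the first enzyme of serine synthesis, was at 573 and 646 CPM with EV-RV and at 424 and 469 CPM with IRF4-RV (-0.45, adjusted p = 0.00982), while Psat1 and Psph, the enzymes after it, had log2 fold changes of -0.08 and -0.05 with adjusted p of 0.565 and 0.736.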
